A study of Mus musculus with 12 samples.

Results

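The genes described here are 33 mouse enzymes that add acyl groups to lysine, remove them, or supply and clear their precursors, and they were taken from a table of 40384 genes by matching its Ensembl identifiers to symbols in GENCODE release M21. They comprise 12 writers (Ep300, Crebbp, Kat2a, Kat2b, Hat1, Kat5, Kat6a, Kat6b, Kat7, Kat8, Aars and Aars2), 18 erasers (Hdac1 to Hdac11 and Sirt1 to Sirt7) and 3 further genes (Acss2, Hagh and Glo1). Their messenger RNA was followed by poly(A)-selected RNA sequencing in 12 libraries from a mouse reprogramming series with 3 libraries in each of 4 groups. The cells came from male embryos at E13.5 that were homozygous for 4F2A, a doxycycline-inducible cassette of the factors Oct4, Sox2, Klf4 and Myc. The groups were the starting embryonic fibroblasts (MEF), cells at day 4 of reprogramming with a control treatment named OE-NC (D4), cells at day 4 with a treatment named OE-DUX (D4_DUX), and induced pluripotent stem cells (iPSC). DUX is a transcription factor of early embryonic genome activation, and the labels give its overexpression as lasting 48 h. One culture text covers all groups, MEF included, and lists 2 µg/mL doxycycline and 1000 U/mL leukemia inhibitory factor. The labels do not say whether the libraries of a group came from separate cultures, so the p-values below measure only the spread between these libraries.

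Lysine acetylation neutralises the positive charge of histone tails and is read by bromodomain and YEATS proteins, and it is set by acetyltransferases that use acetyl-CoA and cleared by zinc-dependent histone deacetylases or NAD-dependent sirtuins. The same enzymes can handle longer acyl groups, among them lactyl groups that derive from lactate or from the glyoxalase pathway. In pluripotent cells histone acetylation is known to accompany an open chromatin state, while class I deacetylases work there in large corepressor complexes.

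The gene named by the DUX label was looked at first. Duxf3, the mouse Dux gene in this annotation, had a value of 0 FPKM in each of the 3 libraries labelled D4_DUX and of no more than 0.0247 FPKM in any other library, below the value of 3 fragments, which was 0.0395 to 0.0493 FPKM. The Duxf3 values therefore give no check of the label. Other genes were not examined as a check, and the group is called by its label throughout. FPKM is fragment counts scaled by transcript length and by library depth, and the recovered depth was 22550000 to 28140000 fragments per library. Of the 12 fixed pluripotency markers, 10 of which passed the filter of 1 FPKM in at least 3 libraries only through iPSC, all 12 were higher in iPSC than in MEF and their summed level was 1694 to 1882 FPKM in iPSC against 0.461 to 1.08 in MEF, where Pou5f1, Dppa2, Fgf4 and Lin28a were listed at 0. At day 4 the sum was 107 to 133 FPKM in D4 and 163 to 173 in libraries labelled D4_DUX, nearly all of it Pou5f1 and Sox2, which are also in the cassette. The 12 fibroblast markers summed to 6071 to 6199 FPKM in MEF, 3323 to 3441 in D4, 2535 to 2613 in libraries labelled D4_DUX and 790 to 1036 in iPSC. Of these 12, 9 were lower and 3 higher in D4 than in MEF, beside 27.6% and 34.2% of all genes tested. With D4_DUX against D4, 7 were lower and 0 higher, beside 15.4% and 20.1% of all genes. In iPSC 10 were lower and 2 higher than in MEF, beside 31.2% and 51% of all genes. None of the 12 was at 0 in a whole group, and the part of fibroblasts in the results below was not tested.

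Among the 33 genes, 32 reached 1 FPKM in at least 3 libraries and entered the fit. The exception was Hdac9, a class IIa deacetylase, which averaged 0.756 ± 0.0151 FPKM in MEF, 0.802 ± 0.03595 in D4, 0.545 ± 0.0583 in libraries labelled D4_DUX and 0.261 ± 0.0207 in iPSC (SD, n = 3). In iPSC the highest length-scaled levels were those of Hdac1 (88.7 ± 2.93 FPKM), Aars (76.4 ± 0.895), Hat1 (50.9 ± 5.69) and Kat7 (48.7 ± 1.63), and the plot of levels in each library shows that most genes were higher in iPSC than in the other groups.

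**Figure D1:**
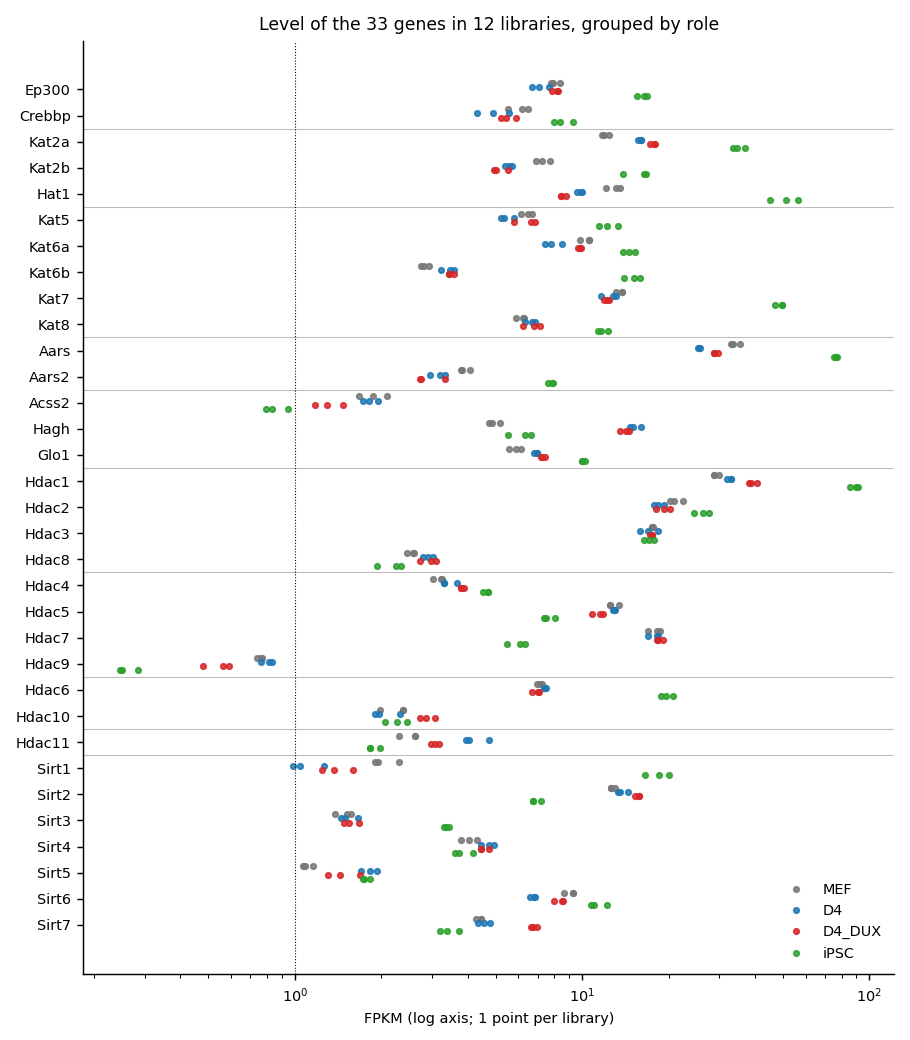
FPKM (log axis) of the 33 genes in each of the 12 libraries, 1 point per library coloured by group, with grey lines between roles and a dotted line at 1 FPKM. The iPSC points lie to the right for all 12 writers, while the erasers split, with Sirt1 rising to 16.6 to 20.1 FPKM and Hdac7 falling to 5.48 to 6.35.

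In iPSC against MEF, all 12 writers were called higher in limma and 0 lower (0 also at an unadjusted p under 0.05), whereas of 17 tested erasers 8 were higher, 6 were lower and 3 were not called. The median log2 fold change of FPKM + 1 was 0.97 for the writers and 0.01 for the erasers, beside 0.21 for all 17114 genes tested. A call here means an adjusted p under 0.05 in limma after Benjamini-Hochberg adjustment over all genes, and it was common: 82.2% of all genes were called in this comparison, 51% as higher and 31.2% as lower. All 33 genes together gave 22 higher and 7 lower, and 29 of 32 had groups that did not overlap, against 82.4% of all genes. The scale of the iPSC libraries matters for these counts. Of the calls over all genes 62.1% were higher on the deposited scale, 51.5% after median-ratio scaling and 46.6% after quantile normalization, which moved the median of all genes by -0.18 and -0.27 on the log2 scale. Under median-ratio scaling the writers still gave 12 higher and none lower, and the erasers 6 higher and 8 lower. Under quantile normalization 11 of the 12 writers were higher, all but Crebbp (adjusted p = 0.0801 in limma), and the erasers gave 5 higher and 9 lower.

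**Figure D2:**
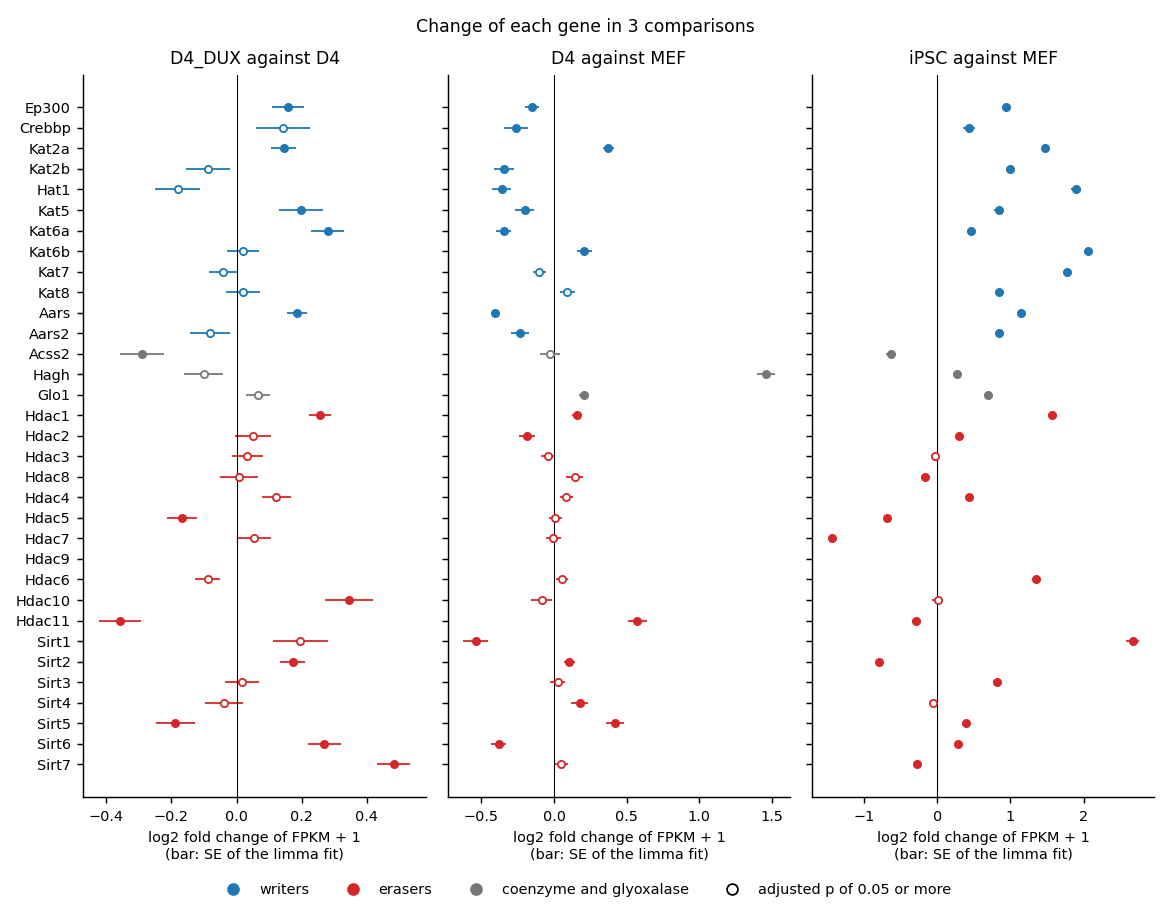
Log2 fold change of FPKM + 1 for each gene in 3 comparisons (points; bars are the SE of the limma fit), with writers in blue, erasers in red and Acss2, Hagh and Glo1 in grey; open points had an adjusted p of 0.05 or more and the horizontal scales differ. The blue points all lie above 0 in iPSC against MEF, where they run from 0.43 to 2.06, while the red points run from -1.44 to 2.67.

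Promoter sequence is shown only for genes whose window holds at most 30 bases of annotated exons. Shown are the 3 of these with the largest rises between MEF and iPSC, Sirt1, Kat6b and Kat7, and Hdac7, which fell most. Each is the 250 bases before the RefSeq start on GRCm38.p6, read 5′ to 3′ on the strand of the gene, with motif matches in capitals. The windows are chr10:63339036-63339285 on the minus strand for Sirt1, chr14:21499520-21499769 on the plus strand for 1 of 2 Kat6b windows, chr11:95310247-95310496 on the minus strand for Kat7 and chr15:97844503-97844752 on the minus strand for 1 of 4 Hdac7 windows. The RefSeq start lies 42669 bases from the 5′ end of the gene in GENCODE M21 for Sirt1 and 18336 bases for Kat6b.
Sirt1: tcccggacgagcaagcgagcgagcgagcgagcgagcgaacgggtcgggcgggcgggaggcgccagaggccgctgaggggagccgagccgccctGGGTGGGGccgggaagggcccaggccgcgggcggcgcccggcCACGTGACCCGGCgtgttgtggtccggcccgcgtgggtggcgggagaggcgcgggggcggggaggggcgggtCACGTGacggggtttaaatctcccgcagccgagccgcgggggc
Kat6b: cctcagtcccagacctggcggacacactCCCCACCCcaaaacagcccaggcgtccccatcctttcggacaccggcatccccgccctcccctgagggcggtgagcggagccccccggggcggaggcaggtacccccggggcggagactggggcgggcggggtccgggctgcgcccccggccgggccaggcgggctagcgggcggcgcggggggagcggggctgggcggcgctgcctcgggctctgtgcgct
Kat7: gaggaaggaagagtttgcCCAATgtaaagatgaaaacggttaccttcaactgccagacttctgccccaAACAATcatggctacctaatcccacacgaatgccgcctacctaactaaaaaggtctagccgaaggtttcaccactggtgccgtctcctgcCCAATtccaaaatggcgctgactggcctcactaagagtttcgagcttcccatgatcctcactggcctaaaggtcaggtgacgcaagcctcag
Hdac7: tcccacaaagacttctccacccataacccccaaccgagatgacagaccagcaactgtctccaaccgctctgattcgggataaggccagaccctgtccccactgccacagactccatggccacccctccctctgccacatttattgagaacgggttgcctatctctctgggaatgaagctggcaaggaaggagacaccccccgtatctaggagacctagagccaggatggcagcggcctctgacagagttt
The motifs were searched on both strands and were the E-box CACGTG, the octamer ATGCAAAT, the Sox core ATTGTT, the Klf core CCCCACCC, the NRF1 core GCGCATGC, the ETS core CCGGAAG, the CCAAT box CCAAT, the antioxidant response element TGACNNNGC and the CRE TGACGTCA. The Sirt1 window held 2 E-boxes, 1 Klf core and 1 antioxidant response element that overlaps an E-box, and 39 CpG dinucleotides. Kat6b's window held 1 Klf core and 27 CpG, that of Kat7 held 1 Sox core, 2 CCAAT boxes and 8 CpG, and that of Hdac7 held no match and 6 CpG. The other Hdac7 windows also held no match, with 25, 21 and 5 CpG, so its CpG count depends on the window. Kat2a and Hdac6, which are not shown, also rose (log2 changes of 1.47 and 1.35). The Kat2a window held no match and 11 CpG, and that of Hdac6 2 CCAAT boxes and 17 CpG. Windows were found for 29 of the 33 genes, 41 windows in all, with none for Kat6a, Hdac1, Hdac3 and Hdac10. Among these 41 windows, 4 held an E-box, beside 6.02% of all 32851 windows of the same length, 6 held a Klf core beside 9.05%, 5 held a Sox core beside 9.42%, 1 held an octamer beside 1.6% and 19 held a CCAAT box beside 33.8%. A further 9 held an antioxidant response element beside 10.2%, 5 an ETS core beside 6.91%, 2 an NRF1 core beside 2.26%, and 0 a CRE beside 1.55%. These are counts of windows, and some windows of a gene overlap. The 2 windows of Kat6b share 1 Klf core, and the 2 of Aars2 share 1 antioxidant response element. By gene, an antioxidant response element was found for 3 of 11 writers, 4 of 15 erasers and 1 of the 3 other genes. The median CpG count was 13 in the 41 windows and 6 over all windows.

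The paired coactivators p300 and CBP acetylate histone H3 at enhancers and also carry out lactylation and crotonylation. Ep300 (ENSMUSG00000055024, GRCm38 chr15:81585351-81652077, plus strand) measured 8.39, 7.77 and 7.94 FPKM in MEF, 7.11, 6.68 and 7.65 in D4, 8.19, 7.83 and 8.22 in D4_DUX and 15.6, 16.4 and 16.8 in iPSC. Its iPSC libraries stood above all others, and its 3 libraries labelled D4_DUX stood above all 3 of D4. The log2 change was 0.93 ± 0.05 (SE) in iPSC against MEF (limma adjusted p = 4.94e-09) and -0.15 ± 0.05 in D4 against MEF (limma adjusted p = 0.0199). In the libraries labelled D4_DUX it was 0.16 ± 0.05 against D4 (limma adjusted p = 0.028), with an adjusted p of 0.0109 to 0.0996 over 22 alternative settings. That call was lost when either of D4 replicates 1 and 2 was left out (limma adjusted p = 0.0702 and 0.0996), and also on dropping replicate 1 or 3 of D4_DUX (0.0809 and 0.0844). In all, 8 of the 22 settings lost it, among them median-ratio scaling (0.0591) and quantile normalization (0.0761). The fall from MEF to D4 was also lost without MEF replicate 1 (limma adjusted p = 0.0796), D4 replicate 1 (0.0501) or D4 replicate 2 (0.0816). Crebbp, which encodes CBP, measured 6.46, 6.197 and 5.53 FPKM in MEF, 4.89, 4.29 and 5.55 in D4, 5.87, 5.23 and 5.42 in D4_DUX and 7.99, 8.38 and 9.28 in iPSC. Its values in D4 and in libraries labelled D4_DUX overlapped, and the log2 difference of 0.14 ± 0.08 between them was not called (limma adjusted p = 0.206). Crebbp rose by 0.43 ± 0.08 on the log2 scale from MEF to iPSC.

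The GNAT family holds Kat2a and Kat2b, alternative catalytic subunits of the SAGA and ATAC coactivators, and Hat1, which acetylates newly made histone H4 before it is deposited on DNA. Kat2a measured 11.8, 11.9 and 12.4 FPKM in MEF, 15.6, 15.97 and 16.03 in D4, 17.96, 17.7 and 17.3 in D4_DUX and 33.4, 34.7 and 36.9 in iPSC. The groups followed the order MEF, D4, D4_DUX, iPSC without overlap, and each step passed the test, with log2 changes of 0.37 ± 0.04 (D4 against MEF), 0.15 ± 0.04 (D4_DUX against D4; limma adjusted p = 0.0124, but 0.0653 after quantile normalization) and 1.09 ± 0.04 (iPSC against D4). Kat2b fell from 7.31 ± 0.416 FPKM in MEF to 5.55 ± 0.166 in D4 (SD, n = 3; log2 change -0.34) and was 15.7 ± 1.52 in iPSC. It averaged 5.16 ± 0.317 in libraries labelled D4_DUX, which was not called against D4. Hat1 measured 13.1, 12.1 and 13.6 FPKM in MEF, 9.904, 9.57 and 10.02 in D4, 8.78, 8.44 and 8.44 in D4_DUX and 45.00, 51.3 and 56.4 in iPSC. The 4 groups did not overlap, and their order, iPSC, MEF, D4 and then the libraries labelled D4_DUX, was that of the summed level of 12 cell cycle markers: 743 to 783 FPKM in iPSC, 308 to 311 in MEF, 202 to 205 in D4 and 186 to 190 in libraries labelled D4_DUX. None of the 12 was at 0 in any group. In iPSC against MEF 10 of them were higher and 2 lower, beside 51% and 31.2% of all genes. All 12 were lower in D4 than in MEF, beside 27.6% of all genes. Between the libraries labelled D4_DUX and D4, 8 were lower and 2 higher, beside 15.4% and 20.1% of all genes. The group means of Kat2b, Kat7 and Aars2 stood in the same order as those of Hat1, so the order was not particular to Hat1. In each of them the libraries labelled D4_DUX overlapped those of D4. Fewer cells of a type and less RNA per cell cannot be told apart in bulk libraries, and the part of cycling cells in the values of Hat1 and these genes was not tested. Hat1 rose 1.89 ± 0.07 on the log2 scale in iPSC against MEF and changed by -0.36 in D4 against MEF, and its -0.18 ± 0.07 in libraries labelled D4_DUX against D4 was not called (limma adjusted p = 0.0613).

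The MYST family holds the catalytic subunits of TIP60 (Kat5), of the MOZ and MORF complexes (Kat6a and Kat6b), of HBO1 (Kat7) and of the MSL and NSL complexes (Kat8). Kat6b, on GRCm38 chr14:21481434-21672478, measured 2.82, 2.93 and 2.75 FPKM in MEF, 3.48, 3.24 and 3.58 in D4, 3.45, 3.57 and 3.45 in D4_DUX and 14.00, 15.2 and 15.8 in iPSC. Its iPSC values were far above the rest, the log2 change against MEF being 2.06 ± 0.05 (limma adjusted p = 6.80e-12). Kat7, on chr11:95274259-95310246, measured 13.7, 13.7 and 13.1 FPKM in MEF, 12.9, 11.6 and 13.2 in D4, 12.4, 11.9 and 12.2 in D4_DUX and 46.8, 49.7 and 49.6 in iPSC. Values in MEF, D4 and the libraries labelled D4_DUX lay between 11.6 and 13.7 FPKM, and iPSC stood alone at 46.8 to 49.7 FPKM, a log2 change of 1.77 ± 0.05 against MEF. Kat6a, the MOZ subunit, measured 10.6, 10.5 and 9.85 FPKM in MEF, 7.81, 7.42 and 8.53 in D4, 9.85, 9.89 and 9.71 in D4_DUX and 13.9, 14.5 and 15.3 in iPSC. D4 was the lowest group without overlap, the libraries labelled D4_DUX lay above it by 0.28 ± 0.05 on the log2 scale (limma adjusted p = 0.00159), and iPSC were highest. Kat5 averaged 6.43 ± 0.304 FPKM in MEF, 5.45 ± 0.294 in D4, 6.42 ± 0.563 in libraries labelled D4_DUX and 12.3 ± 0.962 in iPSC (SD, n = 3). Its call between D4_DUX and D4 (0.20 ± 0.07, limma adjusted p = 0.0406) came with overlapping libraries. It was lost without D4 replicate 2 or 3 (limma adjusted p = 0.101 and 0.116), D4_DUX replicate 1 or 3 (0.12 and 0.144), MEF replicate 2 (0.0539) or iPSC replicate 2 (0.0556). It was also lost with no filter (0.0902), after median-ratio scaling (0.0738) and after quantile normalization (0.0798). In all, 11 of 22 alternative settings lost it. Kat5 also shares 12.1% of its exon length with Rnaseh2c, and the sources used here do not say whether counting used the strand. Kat8 was at 5.88 to 7.13 FPKM in MEF, D4 and the libraries labelled D4_DUX and at 11.8 ± 0.501 in iPSC, a log2 change of 0.84 ± 0.05 against MEF.

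Aars and Aars2 encode the cytosolic and mitochondrial alanyl-tRNA synthetases, which charge tRNA with alanine and have been described as lactate-dependent lysine lactyltransferases. Aars measured 33.05, 35.6 and 33.6 FPKM in MEF, 25.3, 25.7 and 25.5 in D4, 29.8, 28.7 and 28.9 in D4_DUX and 75.5, 77.3 and 76.4 in iPSC. The groups did not overlap: Aars fell from MEF to D4 (-0.40 ± 0.03, limma adjusted p = 4.97e-07), was higher in libraries labelled D4_DUX than in D4 (0.19 ± 0.03, limma adjusted p = 0.00102), and rose in iPSC against MEF (1.14 ± 0.03). Aars shares 15.1% of its exon length with Exosc6 and Gm24103 together, and both were higher in iPSC than in MEF (log2 changes of 0.70 and 1.16). In D4 against MEF Exosc6 was higher (0.44) and Gm24103 lower (-0.81), and neither was called between the libraries labelled D4_DUX and D4. Aars2 fell from 3.898 ± 0.158 FPKM in MEF to 3.17 ± 0.202 in D4 and stood at 2.94 ± 0.342 in libraries labelled D4_DUX, where it was not called against D4, and at 7.81 ± 0.177 in iPSC (SD, n = 3).

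**Figure D3:**
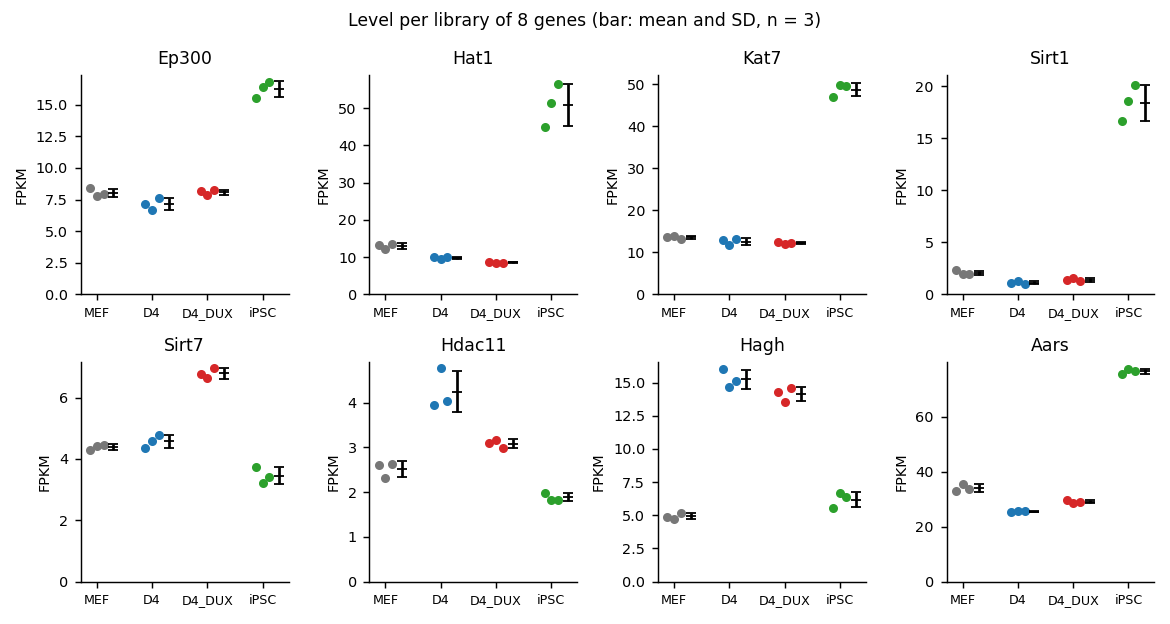
FPKM (linear axis from 0) of 8 genes in each library by group, with the mean and SD of 3 libraries beside the points. Ep300, Hat1, Kat7, Sirt1 and Aars were highest in iPSC, Sirt7 in libraries labelled D4_DUX at 6.62 to 6.97 FPKM, Hdac11 in D4, and Hagh in both day 4 groups.

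Hagh, Glo1 and Acss2 act in the supply and clearance of acyl precursors. Hagh encodes glyoxalase 2, which splits lactoylglutathione, and it measured 4.86, 4.73 and 5.17 FPKM in MEF, 16.00, 14.6 and 15.1 in D4, 14.3, 13.6 and 14.6 in D4_DUX and 5.53, 6.66 and 6.35 in iPSC. Both day 4 groups stood far above MEF and iPSC, and the log2 change of 1.46 ± 0.06 (limma adjusted p = 2.28e-09) was the largest of the 32 tested genes between D4 and MEF. In iPSC it was back to 6.18 ± 0.5803 FPKM, and its log2 difference from MEF of 0.28 was no longer called after median-ratio scaling (limma adjusted p = 0.306) or quantile normalization (0.958). Glo1, glyoxalase 1, which makes lactoylglutathione from methylglyoxal, measured 5.57, 5.896 and 6.11 FPKM in MEF, 6.79, 6.99 and 6.96 in D4, 7.42, 7.26 and 7.18 in D4_DUX and 9.97, 10.03 and 10.2 in iPSC. Its groups stood in the order MEF, D4, D4_DUX, iPSC without overlap, although the step from D4 to D4_DUX (0.07 ± 0.04) was not called (limma adjusted p = 0.192). The Glo1 gene model overlaps 1700097N02Rik, which went from 0 FPKM in MEF to 12.9 in iPSC. It also overlaps AC165962.3 and AC165962.4 on the other strand. AC165962.4 averaged 4.99 FPKM in MEF, 6.05 in D4, 6.34 in libraries labelled D4_DUX and 8.66 in iPSC, the group order of Glo1. AC165962.3 averaged 1.03, 0.797, 1.58 and 4.05 FPKM in the same groups. Whether counting used the strand is not known, so the Glo1 values are uncertain. Acss2, the nuclear and cytosolic enzyme that makes acetyl-CoA from acetate, measured 1.88, 1.68 and 2.097 FPKM in MEF, 1.82, 1.73 and 1.95 in D4, 1.17, 1.48 and 1.29 in D4_DUX and 0.797, 0.946 and 0.833 in iPSC. It was lower in libraries labelled D4_DUX than in D4 (-0.29 ± 0.07, limma adjusted p = 0.00721) and lowest in iPSC, in neither case with overlap. The overlapping genes Ggt7 and Acss2os were also lower in libraries labelled D4_DUX than in D4, by log2 changes of -0.51 and -0.36. Gss, which overlaps Acss2 too, was not called there (0.10, limma adjusted p = 0.175). In iPSC against MEF Ggt7 and Acss2os were lower (-1.23 and -0.62) and Gss was higher (0.87). The Acss2 values are therefore uncertain.

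Class I deacetylases Hdac1 and Hdac2 are the catalytic cores of the NuRD, SIN3 and CoREST complexes, Hdac3 is that of NCoR, and Hdac8 deacetylates cohesin. Hdac1 (ENSMUSG00000028800, GRCm38 chr4:129516104-129542713, minus strand) measured 28.7, 28.8 and 29.9 FPKM in MEF, 32.9, 33.05 and 31.97 in D4, 40.6, 38.05 and 38.9 in D4_DUX and 89.7, 85.4 and 90.9 in iPSC. The 4 groups followed the order MEF, D4, D4_DUX, iPSC without overlap, with log2 changes of 0.16 ± 0.04 in D4 against MEF, 0.26 ± 0.04 in D4_DUX against D4 (limma adjusted p = 0.00025) and 1.57 ± 0.04 in iPSC against MEF. The first of these was not called after quantile normalization (limma adjusted p = 0.154). Hdac2 measured 22.4, 20.9 and 20.3 FPKM in MEF, 18.4, 19.3 and 17.8 in D4, 18.03, 19.3 and 20.2 in D4_DUX and 24.6, 26.4 and 27.7 in iPSC. It overlapped between D4 and D4_DUX and its rise in iPSC against MEF (0.29 ± 0.06) was not called after median-ratio scaling (limma adjusted p = 0.368). Hdac3 measured 17.6, 17.5 and 17.5 FPKM in MEF, 16.9, 18.3 and 15.9 in D4, 17.6, 17.5 and 17.3 in D4_DUX and 16.4, 17.1 and 17.8 in iPSC. All 4 groups overlapped and none of the comparisons called it, yet after median-ratio scaling it was lower in iPSC, by -0.27 on the log2 scale against MEF and -0.17 against D4. Hdac8 was at 1.94 to 3.09 FPKM throughout. It was lower in iPSC than in D4 (-0.30 ± 0.06, limma adjusted p = 0.000456, called in all 21 alternative settings that tested it). Its log2 difference in iPSC against MEF was -0.16 ± 0.06 (limma adjusted p = 0.023), a call lost without MEF replicate 1 (limma adjusted p = 0.0564), MEF replicate 2 (0.0633) or iPSC replicate 1 (0.0949).

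Class IIa deacetylases shuttle between nucleus and cytoplasm and act as MEF2 corepressors. Hdac7 (ENSMUSG00000022475, GRCm38 chr15:97792664-97844502) measured 18.6, 18.2 and 17.01 FPKM in MEF, 16.9, 18.4 and 18.3 in D4, 19.1, 18.3 and 18.4 in D4_DUX and 6.098, 6.35 and 5.48 in iPSC. The 3 other groups overlapped at 16.9 to 19.1 FPKM and iPSC lay far below them, at a log2 change of -1.44 ± 0.05 against MEF (limma adjusted p = 2.15e-10), the largest fall of the 32 genes. Hdac5 measured 12.5, 12.5 and 13.49 FPKM in MEF, 12.9, 12.9 and 12.98 in D4, 11.8, 11.6 and 10.8 in D4_DUX and 8.03, 7.47 and 7.34 in iPSC. It was lower in libraries labelled D4_DUX than in D4 (-0.17 ± 0.04, limma adjusted p = 0.0136), a call lost without D4_DUX replicate 3 (limma adjusted p = 0.0587), and lower again in iPSC. Hdac4 went the other way, from 3.17 ± 0.125 FPKM in MEF to 4.65 ± 0.113 in iPSC (SD, n = 3; log2 change 0.44), with 3.43 ± 0.206 in D4 and 3.81 ± 0.0477 in libraries labelled D4_DUX, which was not called. It shares 22.4% of its exon length with Gm26720.

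Class IIb and class IV genes differed among themselves. Hdac6, the cytoplasmic tubulin deacetylase, stayed at 6.70 to 7.51 FPKM in MEF and both day 4 groups and was 19.7 ± 0.966 in iPSC (log2 change 1.35 ± 0.04 against MEF). Hdac10, a polyamine deacetylase, measured 1.98, 2.38 and 2.37 FPKM in MEF, 1.96, 1.901 and 2.33 in D4, 3.07, 2.86 and 2.74 in D4_DUX and 2.45, 2.07 and 2.27 in iPSC. The libraries labelled D4_DUX were highest and did not overlap with any other group, and their log2 change against D4 was 0.35 ± 0.07 (limma adjusted p = 0.00398). Hdac11, a defatty-acylase of lysine, measured 2.61, 2.31 and 2.63 FPKM in MEF, 3.94, 4.76 and 4.03 in D4, 3.09, 3.17 and 2.98 in D4_DUX and 1.99, 1.83 and 1.83 in iPSC. It was highest in D4 without overlap, with a log2 change of 0.57 ± 0.06 against MEF and, in libraries labelled D4_DUX, of -0.36 ± 0.06 against D4 (limma adjusted p = 0.00148), and lowest in iPSC. Gm44002 and Gm14573 together overlap 17.9% of its exon length. Between the libraries labelled D4_DUX and D4, Gm44002 was also lower, with a log2 change of -0.42, and Gm14573 was not called (-0.10, limma adjusted p = 0.688). Both were higher in D4 than in MEF (0.62 for Gm44002 and 0.44 for Gm14573) and lower in iPSC than in D4 (-0.87 and -0.66). In iPSC against MEF Gm44002 was lower (-0.26) and Gm14573 was not called (-0.21). Whether counting used the strand is not known, so the Hdac11 values are uncertain.

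Sirtuins split into nuclear (Sirt1, Sirt6 and Sirt7), mainly cytosolic (Sirt2) and mitochondrial (Sirt3, Sirt4 and Sirt5) enzymes. Sirt1 (ENSMUSG00000020063, GRCm38 chr10:63319005-63381704, minus strand), which deacetylates histones and p53, measured 2.302, 1.95 and 1.91 FPKM in MEF, 1.04, 1.27 and 0.9895 in D4, 1.37, 1.599 and 1.25 in D4_DUX and 16.6, 18.5 and 20.1 in iPSC. It was lowest in D4, at 1.100 FPKM on average, and highest in iPSC, with log2 changes of -0.54 ± 0.08 in D4 against MEF (limma adjusted p = 0.000173) and 2.67 ± 0.08 in iPSC against MEF (limma adjusted p = 6.02e-11), the largest rise of the 32 genes. In the libraries labelled D4_DUX its values overlapped those of D4 and the difference of 0.20 ± 0.08 was not called (limma adjusted p = 0.098). Sirt7, a nucleolar H3K18 deacetylase, measured 4.28, 4.44 and 4.44 FPKM in MEF, 4.36, 4.57 and 4.79 in D4, 6.77, 6.62 and 6.97 in D4_DUX and 3.74, 3.21 and 3.399 in iPSC. The libraries labelled D4_DUX lay above every other library, with a log2 change of 0.48 ± 0.05 against D4 (limma adjusted p = 3.82e-05, and 1.86e-05 to 0.00126 over 22 alternative settings). That was the largest rise of the 32 genes in this comparison. Of the genes that overlap Sirt7, Mafg was not called (0.09). Mir6936 was not called either (limma adjusted p = 0.186), although it went from 1.03 FPKM in D4 to 2.35 in libraries labelled D4_DUX (0.72). Sirt6, a chromatin deacetylase linked to glycolytic genes, measured 8.68, 9.32 and 9.31 FPKM in MEF, 6.88, 6.56 and 6.82 in D4, 8.59, 7.96 and 8.49 in D4_DUX and 10.8, 10.98 and 12.3 in iPSC. D4 was the lowest group without overlap, and the libraries labelled D4_DUX were higher by 0.27 ± 0.05 (limma adjusted p = 0.00201). Sirt2 measured 12.6, 13.01 and 12.6 FPKM in MEF, 13.501, 14.4 and 13.3 in D4, 15.8, 15.8 and 15.3 in D4_DUX and 6.73, 7.19 and 6.76 in iPSC. It was highest in libraries labelled D4_DUX and lowest in iPSC, neither with overlap, at log2 changes of 0.17 ± 0.04 against D4 (limma adjusted p = 0.00536) and -0.80 ± 0.04 against MEF.

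Of the mitochondrial sirtuins, Sirt5, which removes succinyl and malonyl groups, measured 1.07, 1.09 and 1.16 FPKM in MEF, 1.82, 1.701 and 1.93 in D4, 1.44, 1.69 and 1.31 in D4_DUX and 1.74, 1.72 and 1.83 in iPSC. MEF was lowest without overlap, and D4 rose by 0.42 ± 0.06 (limma adjusted p = 8.69e-05). The lower value in libraries labelled D4_DUX (-0.19 ± 0.06, limma adjusted p = 0.0319) was lost without D4 replicate 1 or 3 (limma adjusted p = 0.0758 and 0.104) and without D4_DUX replicate 1 or 3 (0.0905 and 0.126). That call was also lost with no filter (0.0735) and in a fit of only the 2 groups compared (0.0875). In all, 8 of the 21 alternative settings that tested Sirt5 lost it. Sirt3, the main mitochondrial deacetylase, was at 1.38 to 1.67 FPKM outside iPSC and at 3.37 ± 0.0695 in iPSC (SD, n = 3; log2 change 0.81 against MEF). It shares 12.7% of its exon length with Ric8a and Psmd13. Sirt4 was at 3.62 to 4.92 FPKM in all libraries. It was lower in iPSC than in D4 (-0.24 ± 0.06, limma adjusted p = 0.00266). In iPSC against MEF it was not called (-0.06 ± 0.06, limma adjusted p = 0.354), but was lower after median-ratio scaling (-0.25, limma adjusted p = 0.0015) and quantile normalization (-0.36, 0.000145). Its rise in D4 against MEF (0.18 ± 0.06, limma adjusted p = 0.0205) was lost under both scalings (0.0636 and 0.0752) and without MEF replicate 3 (0.0821), D4 replicate 2 (0.0734) or D4 replicate 3 (0.0526).

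Between the libraries labelled D4_DUX and D4, 14 of the 32 genes were called, 10 higher and 4 lower, which is 43.8% of them beside 35.4% of all genes (20.1% higher and 15.4% lower). Groups did not overlap for 18 of the 32 beside 50.5% of all genes. Writers gave 5 higher and 0 lower of 12 in limma (1 lower at an unadjusted p under 0.05, Hat1), and erasers 5 higher and 3 lower of 17. Their medians were 0.08 and 0.05 beside 0.02 for all genes. The genes higher in libraries labelled D4_DUX were Sirt7, Hdac10, Kat6a, Sirt6, Hdac1, Kat5, Aars, Sirt2, Ep300 and Kat2a, and those lower were Hdac11, Acss2, Sirt5 and Hdac5. The writer count is the least settled: it was 3 without D4 replicate 2, D4_DUX replicate 1 or D4_DUX replicate 3, also 3 after median-ratio scaling, and 2 after quantile normalization. Hat1 made it 1 writer lower without iPSC replicate 1 or iPSC replicate 3. Without D4_DUX replicate 3 the 4 genes lower became 2, of which 1 was an eraser. Macrophage markers differed between these groups too: 15 of 16 were lower in libraries labelled D4_DUX, whose summed level was 50.2 to 52.1 FPKM against 193 to 230 in D4, 1609 to 1655 in MEF and 180 to 221 in iPSC, and none was at 0 in a whole group. The part of macrophages in these results was not tested. Epithelial markers summed to 27.4 to 29.0 FPKM in libraries labelled D4_DUX, 10.5 to 11.9 in D4, 5.08 to 5.46 in MEF and 148 to 161 in iPSC, with 4 of 7 tested higher in D4_DUX than in D4. Endothelial markers summed to 20.2 to 22.6 FPKM in libraries labelled D4_DUX, 14.0 to 14.5 in D4, 0.703 to 0.757 in MEF and 27.3 to 27.9 in iPSC, mostly Tek at day 4, with Cldn5 at 0 in MEF and both day 4 groups.

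Between D4 and MEF the writers mostly fell: 8 were lower and 2 higher of 12, while the erasers gave 5 higher and 3 lower of 17. All 32 gave 9 higher and 11 lower, and 7 lower without MEF replicate 1. Over all genes 61.8% were called, 34.2% higher and 27.6% lower, and for the 32 genes it was 62.5%. Groups did not overlap for 23 of the 32 beside 66.5% of all genes. The writers that fell were Aars, Hat1, Kat6a, Kat2b, Crebbp, Aars2, Kat5 and Ep300, from -0.40 to -0.15 on the log2 scale, and the 2 that rose were Kat2a and Kat6b. Without MEF replicate 1 or D4 replicate 2 the count of lower writers was 5, because Ep300, Crebbp and Kat5 each lost their call. Erasers higher were 3 without MEF replicate 3 or D4 replicate 2, 3 after median-ratio scaling and 2 after quantile normalization. All 16 macrophage markers, 3 of which passed the filter only through MEF, were lower in D4 than in MEF, and their part in these falls was not tested. D4 is the control of one comparison and the test group of the other, so the values of the 5 writers called higher in libraries labelled D4_DUX stand side by side without a test of their relation: log2 changes in D4 against MEF and in D4_DUX against D4 were -0.35 and 0.28 for Kat6a, -0.20 and 0.20 for Kat5, -0.40 and 0.19 for Aars, -0.15 and 0.16 for Ep300, and 0.37 and 0.15 for Kat2a.

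In iPSC against D4, 12 writers were higher and 0 lower in limma (0 also at an unadjusted p under 0.05), and the erasers gave 7 higher and 7 lower of 17, beside 82.4% of all genes called (48.5% higher and 33.9% lower). Erasers were 7 higher and 9 lower after median-ratio scaling, and 7 higher and 10 lower after quantile normalization. The 4 largest rises were Sirt1 (3.21), Hat1 (2.25), Kat7 (1.88) and Kat6b (1.85), and the 4 largest falls Hdac7 (-1.44), Hagh (-1.18), Sirt2 (-0.90) and Hdac11 (-0.86). Over all genes 58.8% of calls were higher on the deposited scale, 50.9% after median-ratio scaling and 46.7% after quantile normalization.

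The sum of writer FPKM over the sum of eraser FPKM within a library gave one number that needs no scaling between libraries. It was 0.807 to 0.817 in MEF, 0.665 to 0.723 in D4, 0.691 to 0.702 in libraries labelled D4_DUX and 1.33 to 1.42 in iPSC. Both day 4 groups lay below MEF and overlapped with each other, and iPSC lay above all. Summed writers were 108 ± 2.46 FPKM in D4, 116 ± 1.72 in libraries labelled D4_DUX and 313 ± 15.3 in iPSC, and summed erasers 154 ± 3.60, 166 ± 1.63 and 226 ± 6.27 (SD, n = 3). Aars carries much of the writer sum, and without Aars and Aars2, a choice made after seeing the data, the means were 0.564 ± 0.0103 in MEF, 0.515 ± 0.0293 in D4, 0.504 ± 0.00475 in libraries labelled D4_DUX and 1.01 ± 0.0459 in iPSC.

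**Figure D4:**
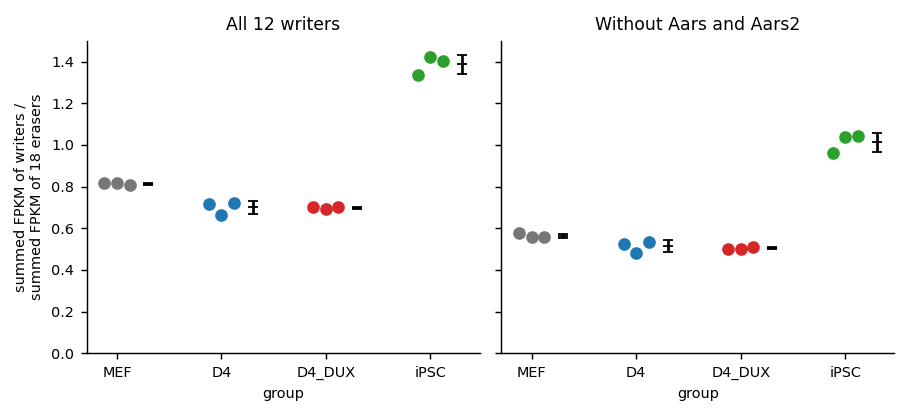
Summed FPKM of the writers divided by that of the 18 erasers in each library (points) with the mean and SD of 3 libraries, for all 12 writers on the left and without Aars and Aars2 on the right. The iPSC libraries lie at 1.33 to 1.42 on the left, above every other library.

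Related genes also changed their balance within libraries. The log2 ratio of Kat6a to Kat6b was 1.87 ± 0.0376 in MEF, 1.20 ± 0.0448 in D4, 1.49 ± 0.0220 in libraries labelled D4_DUX and -0.04 ± 0.0295 in iPSC (SD, n = 3), so the 2 paralogs were near parity in iPSC and no groups overlapped. Hdac1 over Hdac2 went from 0.46 ± 0.100 in MEF to 0.82 ± 0.0384 in D4, 1.03 ± 0.123 in libraries labelled D4_DUX and 1.76 ± 0.0926 in iPSC. Kat2a over Kat2b was highest in libraries labelled D4_DUX, at 1.78 ± 0.115, with 0.72 ± 0.0999 in MEF, 1.52 ± 0.0611 in D4 and 1.16 ± 0.0936 in iPSC. Hdac4 over Hdac5 went from -2.02 ± 0.0675 in MEF to -1.92 ± 0.0785 in D4, -1.58 ± 0.0570 in libraries labelled D4_DUX and -0.71 ± 0.0649 in iPSC, with overlap between MEF and D4. Ep300 over Crebbp was 0.41 ± 0.102 in MEF, 0.55 ± 0.0879 in D4 and 0.55 ± 0.0648 in libraries labelled D4_DUX, and these groups overlapped. In iPSC it was 0.93 ± 0.0653, above all other libraries. Aars over Aars2 stayed between 2.94 and 3.39 in all libraries. The ratios are given as a description, and no model was fitted to them.

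**Figure D5:**
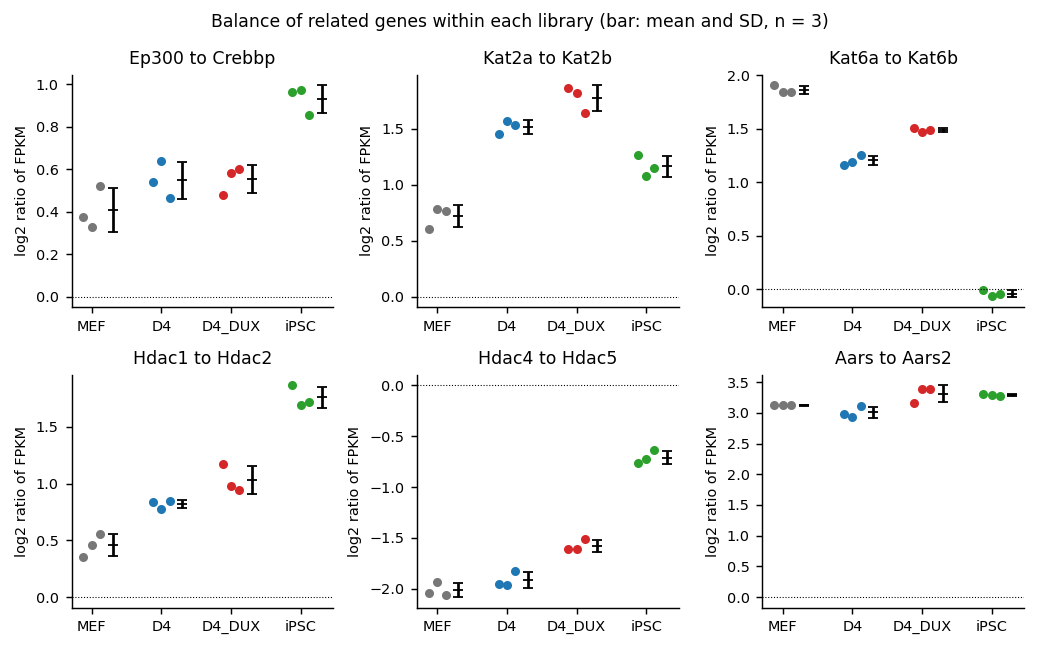
Log2 ratio of FPKM of 6 gene pairs in each library by group, with the mean and SD of 3 libraries and a dotted line at equal levels; the vertical scales differ. The ratio of Kat6a to Kat6b falls to about 0 in iPSC, and that of Hdac1 to Hdac2 is highest there at 1.69 to 1.87.

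The noncatalytic partners of these enzymes were followed in lists of other genes of the pathway. In iPSC against MEF, 42 of 53 subunits of acetyltransferase complexes were higher and 4 lower, and 24 of 39 subunits of deacetylase complexes were higher and 11 lower, beside 51% and 31.2% of all genes. In iPSC against D4 the counts were 43 higher and 5 lower of 53, and 24 higher and 8 lower of 39, beside 48.5% and 33.9% of all genes. In iPSC against MEF, TIP60 subunits gave 14 higher and 1 lower of 16, with the ATPases Ruvbl2 (1.81, 22.9 to 82.4 FPKM) and Ruvbl1 (1.63). Subunits of SAGA and ATAC gave 15 higher and 1 lower of 20, with Taf5l (2.02, 5.402 to 24.9 FPKM) and the scaffold Wdr5 (1.96). Subunits of the MOZ and HBO1 complexes, the partners of Kat6a, Kat6b and Kat7, gave 7 higher and 0 lower of 8, with Jade1 (2.28, 6.599 to 35.98 FPKM), Brpf3 (2.00) and Ing5 (1.98). MSL and NSL subunits, the partners of Kat8, gave 6 higher and 2 lower of 9, with Msl2 (1.23) and Mcrs1 (1.23).

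Deacetylase complexes were mixed in iPSC against MEF, where 51% of all genes were higher and 31.2% lower. NuRD gave 8 higher and 3 lower of 12, with Gatad2a (1.22) and Mta3 (1.07) up and the helicase Chd3 down (-1.62, 62.5 to 19.6 FPKM). Subunits of SIN3 gave 7 higher and 5 lower of 14, near the shares of all genes, with Sap30 (1.02) and Brms1 (0.88) up. NCoR, CoREST and MiDAC subunits gave 9 higher and 3 lower of 13, with Rcor2 (2.12, 8.14 to 38.6 FPKM) and the demethylase Kdm1a (0.88) up.

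In iPSC against MEF, acyl-lysine readers gave 14 higher and 3 lower of 19 tested, with Trim24 (1.71, 4.33 to 16.5 FPKM) and Baz2a (1.47), beside 51% higher and 31.2% lower of all genes. The 14 include Cecr2 and Dpf1, which reached 1 FPKM in 3 libraries only through iPSC and so had to differ. Other acyltransferases gave 10 higher and 1 lower of 13, with the cohesin acetyltransferase Esco2 (2.36) and the RNA cytidine acetyltransferase Nat10 (2.31). Genes of NAD supply and use, the cosubstrate of sirtuins, gave 7 higher and 2 lower of 13, with Nmnat2 (3.89, 0.342 to 18.8 FPKM) and Parp1 (2.34). Genes of acetyl-CoA and acyl-CoA supply gave 6 higher and 4 lower of 14, with Pdhb (1.91) up and Acat1 (-1.44) down. The shares of higher genes in these 2 lists are near the 51% of all genes, and Qprt, Sarm1 and Acss1 among them passed the filter only through iPSC. The lactate and methylglyoxal list gave 2 higher and 8 lower of 11 tested, beside 51% and 31.2% of all genes: Ldha, which makes lactate, went from 417 to 105 FPKM (-1.98), the lactate exporter Slc16a3 from 53.9 to 2.904 (-3.82), and Ldhb from 23.1 to 88.2 (1.89).

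In the libraries labelled D4_DUX against D4, 13 of 53 acetyltransferase complex subunits were higher and 0 lower in limma (17 higher and 0 lower at an unadjusted p under 0.05), and 12 of 39 deacetylase complex subunits were higher and 4 lower, beside 20.1% and 15.4% of all genes. The medians were 0.07 and 0.08 on the log2 scale. TIP60 gave 5 higher and 0 lower of 16, led by Mrgbp (0.50, limma adjusted p = 3.60e-05) and Actl6a (0.29). SAGA and ATAC gave 4 higher of 20, MOZ and HBO1 2 of 8 and MSL and NSL 2 of 9, none of them with a lower call, and they included Atxn7 (0.25), Brpf3 (0.18) and Msl1 (0.30). NuRD gave 5 higher and 1 lower of 12, with Mbd3 (0.32), SIN3 3 higher and 2 lower of 14, with Brms1 (0.42), and the NCoR, CoREST and MiDAC list 4 higher and 1 lower of 13, with Trerf1 (0.41). Readers gave 6 higher and 0 lower of 19, with Mllt1 (0.26), and other acyltransferases 6 higher and 1 lower of 13, with Naa40 (0.25) up and Ncoa1 (-0.32) down. For NAD it was 2 higher and 1 lower of 13, with Nampt, the salvage enzyme, up (0.44, 9.86 to 13.7 FPKM) and the NAD glycohydrolase Cd38 down (-0.95). Acyl-CoA supply gave 1 higher and 3 lower of 14, with Acat1 down (-0.30), and the lactate list 2 higher and 1 lower of 11, with Ldha (0.17) and Pkm (0.27) up and Ldhb down (-0.47).

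In D4 against MEF more of these partners were lower than higher: 23 of 53 acetyltransferase complex subunits were lower and 8 higher, and 16 of 39 deacetylase complex subunits were lower and 8 higher, beside 27.6% and 34.2% of all genes. Medians were -0.09 and -0.12 on the log2 scale. Among the lower ones were Brd8 of TIP60 (-0.65), Supt20 of SAGA (-0.41), Hcfc1 of NSL (-0.51), Brpf1 (-0.33), Chd3 (-0.85) and Ing1 of SIN3 (-0.50), and among the higher ones Mrgbp (0.58), Ruvbl1 (0.52), Mta3 (0.50) and Sap18 (0.67). Acetyl-CoA and acyl-CoA supply went the other way, with 9 higher and 3 lower of 14, led by the pyruvate dehydrogenase subunits Pdha1 (0.73, 42.8 to 71.6 FPKM) and Dlat (0.60) and the succinyl-CoA ligase subunit Suclg2 (0.71). Lactate and methylglyoxal genes gave 3 higher and 6 lower of 11, with the transporter Slc16a1 (-1.11, 31.9 to 14.3 FPKM) and Ldha (-0.49) among the lower ones. NAD genes gave 5 higher and 3 lower of 13, with Naprt (0.72) higher and Nampt (-0.72) lower. Readers gave 6 higher and 4 lower of 19, with Trim24 (0.58) and Mllt3 (0.51) higher and Pbrm1 (-0.55) lower, and other acyltransferases 4 higher and 5 lower of 13, with Esco1 (0.51) higher and Esco2 (-0.59) lower.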

How the data were processed

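The authors deposited 1 table of FPKM for 40384 genes in 12 libraries. Reads were 2 × 150 bases from a stranded poly(A) kit per the labels' protocols, and the build is mm10 per the submitters' processing notes; the aligner, the annotation, the counter and its use of strand were not given in the sources used here. Identifiers matched GENCODE M21 for 40225 of 40384 rows. Genes with at least 1 FPKM in at least 3 libraries (17114) were fitted as log2(FPKM + 1) with limma 3.58.1 in R 4.3.3, using 4 group means, a variance trend and Benjamini-Hochberg adjustment over all genes tested, with a threshold of 0.05 and 8 residual degrees of freedom; a fold change on this scale understates the change of low genes. The fit was tested on simulated data. Depth was recovered from the steps of low values, of which 43.7% to 45.6% were whole within 0.01, so no count test was used. No pair of columns was identical, and libraries of a group correlated at 0.994 or more across genes.

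All 33 genes are accounted for. Library values are given for Ep300, Crebbp, Hdac1, Hdac2, Hdac3, Sirt1, Aars, Acss2, Glo1, Hagh and the 4 largest called rises and falls in each comparison. From each pathway list up to 4 genes with the smallest adjusted p are named. The genes, the lists and the comparisons were chosen with earlier results of these data known, so lists are described by counts and medians and not tested. Promoter windows came from RefSeq on GRCm38.p6. The table of windows reaches 50 bases past the start, which were left out. A window with more than 30 bases in annotated exons was not printed. Tried as alternatives were other pseudocounts, filters, scalings, designs and leaving out each library.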

Additional observations from a re-analysis of the deposited data

How the results depend on the processing

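Over 22 alternative settings, the counts of writers higher in iPSC against MEF and against D4 stayed within 11 to 12. With a filter of FPKM 5, which tests fewer genes, the 33 genes gave 2 lower in D4_DUX against D4, 4 lower in iPSC against MEF and 5 lower in iPSC against D4, the writers gave 1 lower in D4_DUX against D4, and the erasers gave 1 lower in D4_DUX against D4, 2 higher in D4 against MEF, 5 higher in iPSC against MEF and 4 lower in iPSC against D4. Writers higher in D4_DUX against D4 numbered 3 with no filter, 3 after median-ratio scaling, 2 after quantile normalization and 3 in a fit of only the 2 groups compared, where 1 was lower. Erasers higher in D4 against MEF numbered 3 after median-ratio scaling and 2 after quantile normalization, and erasers higher in iPSC against MEF 5 after quantile normalization. Hdac3 in iPSC against D4 turned to -0.17 under both scalings, and Hdac10 turned to -0.28 in iPSC against MEF and -0.19 in iPSC against D4 after quantile normalization. The cause was not tested.

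Leaving out each library gave these ranges. In D4_DUX against D4 they were 8 to 10 higher and 2 to 5 lower of the 33 genes, 3 to 5 writers higher, 0 to 1 writers lower and 1 to 3 erasers lower. In D4 against MEF they were 7 to 10 higher and 7 to 11 lower, 5 to 8 writers lower and 3 to 6 erasers higher. In iPSC against MEF they were 22 higher in every case and 6 to 7 lower, and in iPSC against D4 20 higher and 9 lower in every case.

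Without Aars and Aars2, added after seeing the data, the ratio of writers to erasers was 0.564 in MEF, 0.515 in D4, 0.504 in D4_DUX and 1.01 in iPSC. As log2 ratios of FPKM + 1, Ep300 over Crebbp was 0.48 in D4_DUX and 0.86 in iPSC, Kat2a over Kat2b 1.37 in D4 and 1.60 in D4_DUX, Kat6a over Kat6b 1.56 in MEF, 1.01 in D4 and 1.27 in D4_DUX, Hdac4 over Hdac5 -1.73 in MEF, -1.65 in D4, -1.36 in D4_DUX and -0.61 in iPSC, and Aars over Aars2 2.84 in MEF, 2.67 in D4, 2.94 in D4_DUX and 3.14 in iPSC, since the added 1 shrinks ratios of low genes.

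Libraries of different groups with the same replicate number did not deviate together (r from -0.15 to 0.07 across genes, beside -0.13 to 0.22 for different numbers), so the numbers give no pairing. A replicate block lost 2 calls among these genes, Kat5 (limma adjusted p = 0.0583) and Sirt5 (0.0572) in D4_DUX against D4. The SE of a log2 change among these genes ran from 0.03 to 0.08, which limits what 3 libraries a group can show.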
